A study of Sus scrofa with 9 samples.

Results

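The urea cycle was examined through the transcripts of 8 genes in pig liver. They were found by their symbol in the deposited table of counts, which lists 29837 gene symbols. All 8 were in the table once, and all 8 passed the filter on low counts that left 14100 genes for testing. They are 6 enzymes (NAGS, CPS1, OTC, ASS1, ASL and ARG1) and 2 carriers of the inner mitochondrial membrane, SLC25A15 and SLC25A13.

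RNA of whole liver was sequenced after ribosomal depletion from 4 MIDY pigs and 5 wild type (WT) pigs, 1 library per animal. MIDY pigs are transgenic for an insulin gene with the C94Y mutation, a change that makes proinsulin misfold in the beta cells of the pancreas, and the name abbreviates a diabetes of youth induced by mutant INS. All 9 pigs were female and 2 years old, were fed daily and drank freely. Diabetic animals were given short- and long-acting insulin in the daytime, so the effect of the mutation, of diabetes and of injected insulin cannot be told apart. The labels used here name neither the promoter of the transgene nor the litters, and do not say how long after a meal the livers were taken.

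The urea cycle is the route by which the liver turns toxic ammonia into urea, which the kidney then excretes. Its first steps run in the mitochondria of hepatocytes, chiefly those near the portal vein: NAGS makes N-acetylglutamate, the obligatory activator of CPS1, CPS1 joins ammonia and bicarbonate into carbamoyl phosphate, and OTC adds this to ornithine to give citrulline. In the cytosol ASS1 joins citrulline with aspartate, ASL splits the product into arginine and fumarate, and ARG1 releases urea and gives ornithine back. SLC25A15 exchanges ornithine for citrulline across the membrane, and SLC25A13 brings out the aspartate that ASS1 needs. In mammals transcripts of these enzymes are known to increase with dietary protein, fasting, glucagon and glucocorticoids.

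Libraries held 14819335 to 18708976 counts in MIDY pigs and 14115415 to 19533463 in WT pigs. Each of the 10 hepatocyte markers checked, albumin and transthyretin among them, was detected, and their summed level was 161164 to 196676 CPM in MIDY libraries and 138569 to 197285 CPM in WT libraries. CPM are counts per 1000000, scaled with TMM factors that allow for differences in library composition. None of the 10 was called by edgeR, at an unadjusted p or by DESeq2. In APOB every MIDY library lay above every WT library (14839 to 20102 and 13743 to 14216 CPM), as in 3.72% of all genes. In whole liver, fewer cells of a type and less RNA per cell cannot be told apart. In a principal component analysis of 500 genes, those of highest variance, WT replicate 1 lay at 0.90 on the first component, between the other WT libraries (-20.0 to -11.8) and the MIDY libraries (6.51 to 24.1), and on the second WT replicate 2 lay at 25.2, with all others between -11.0 and 4.12. Levels are not compared between genes, because a longer transcript gives more counts and transcript lengths were not used here.

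ARG1 and ASS1, 2 of the 8 urea cycle transcripts, rose in MIDY liver, and none fell, at a Benjamini-Hochberg adjusted p below 0.05 in edgeR's quasi-likelihood test. Over all genes tested, 0.816% were called higher and 0.355% lower by the same rule. At an unadjusted p below 0.05, 6 of the 8 were higher and 1, NAGS, was lower, beside 8.15% and 8% of all genes. In 4 of the 8 (CPS1, OTC, ASS1 and ARG1) every MIDY library lay above every WT library, which was so for 3.72% of all genes. In none did every MIDY library lie below every WT library, beside 2.63% of all genes. Fitted log2 fold changes were above 0 for 7 of the 8 with a median of 0.46, and the median over all genes tested was -0.0046.

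Taken as raw reads, the 8 transcripts together made up 0.705, 0.771, 0.607 and 0.687% of all counts in MIDY libraries 1 to 4. In WT libraries 1 to 5 they made up 0.452, 0.419, 0.298, 0.450 and 0.500%. The groups did not overlap, and CPS1 alone supplied 40.5 to 48.9% of these reads in MIDY libraries and 45.0 to 52.3% in WT libraries.

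**Figure D1:**
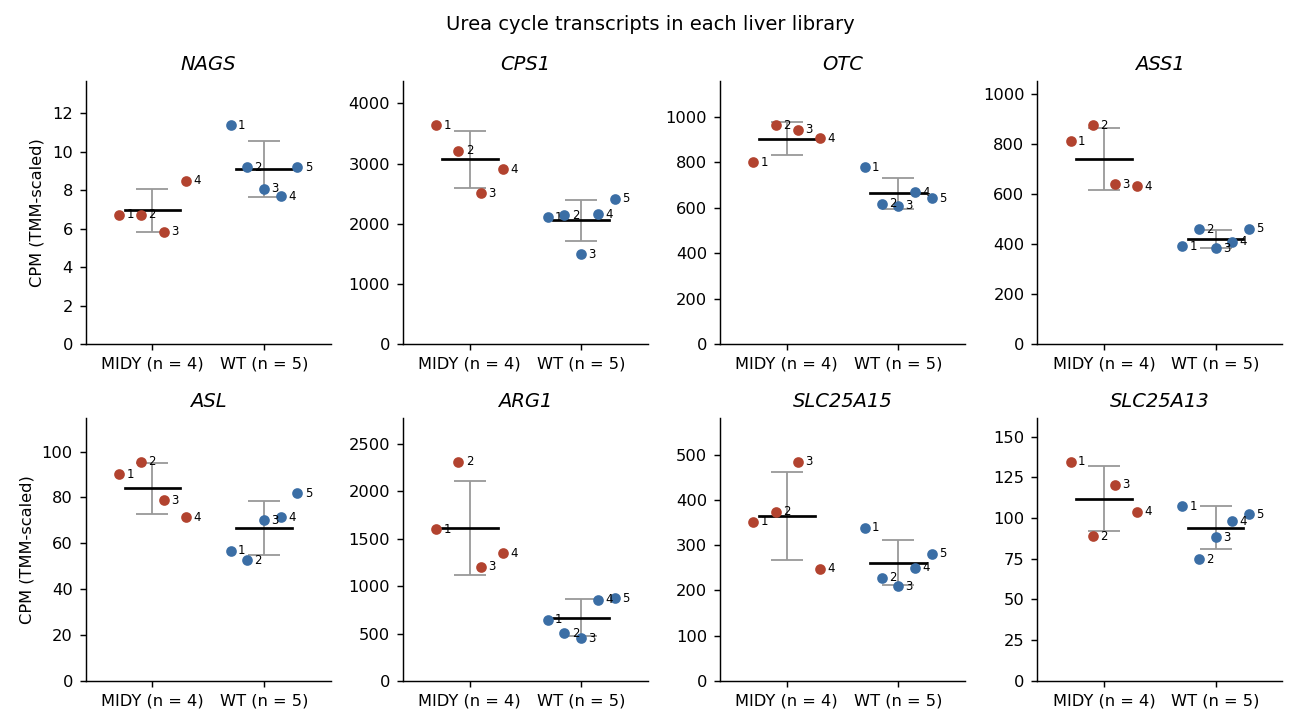
Level of each urea cycle transcript in CPM (vertical axes, each from 0) in 4 MIDY and 5 WT liver libraries; points are single pigs with their replicate number, bars the mean and SD. ARG1 lies between 1203 and 2314 CPM in MIDY and between 452 and 871 CPM in WT, while NAGS is the one gene with a lower mean in MIDY (6.95 against 9.11 CPM).

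ARG1, the cytosolic arginase that releases urea, had the largest log2 fold change of the 8. It lies on chromosome 1 (32006035 to 32028983 on Sscrofa11.1). Its level was 1602, 2314, 1203 and 1345 CPM in MIDY libraries 1 to 4, and 644, 506, 452, 855 and 871 CPM in WT libraries 1 to 5. MIDY replicate 2 stood highest, and even the lowest MIDY library lay above the highest WT library.

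The log2 fold change of ARG1 was 1.28 ± 0.24 (SE), a 2.43-fold difference with a 95% interval of 1.69 to 3.48 (edgeR adjusted p = 0.0302). Both groups varied widely around their means, with a coefficient of variation of 30.5% in MIDY and 29.1% in WT. Leaving out each library in turn gave 9 further fits, and the call was lost in 4 of them: without MIDY replicate 1 or 2, and without WT replicate 2 or 3, where edgeR's adjusted p reached up to 0.0733. Across those 9 fits the log2 fold change stayed between 1.06 and 1.40.

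ASS1, the ligase that joins citrulline to aspartate, had the smallest p of the 8, 26th of all 14100 genes. It lies on the same chromosome 1, at 270531434 to 270586364. Its level was 812, 876, 641 and 631 CPM in MIDY libraries 1 to 4, against 393, 459, 385, 410 and 462 CPM in WT libraries 1 to 5. WT libraries were close together (coefficient of variation 8.67%), and MIDY libraries fell into a higher pair, replicates 1 and 2, and a lower pair, replicates 3 and 4.

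The log2 fold change of ASS1 was 0.81 ± 0.13 (SE; edgeR adjusted p = 0.0144), or 1.76-fold with a 95% interval of 1.45 to 2.12. It was called in each of the 9 single-omission fits, with edgeR adjusted p between 0.00902 and 0.0478. Leaving out WT replicates 1 and 2 together ended both calls: edgeR adjusted p was 0.0582 for ASS1 and 0.108 for ARG1, with log2 fold changes of 0.82 and 1.15. In that fit 0.296% of all genes were called higher.

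The mitochondrial enzymes CPS1 and OTC had complete separation of the groups but no edgeR call. CPS1 (chromosome 15, 113210038 to 113339086), which commits ammonia to the cycle, was at 3643, 3214, 2510 and 2912 CPM in MIDY libraries 1 to 4. WT libraries 1 to 5 had 2109, 2139, 1492, 2155 and 2415 CPM of CPS1. The lowest MIDY library, replicate 3, lay just above the highest WT library, replicate 5, and WT replicate 3 was the low one.

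The log2 difference of CPS1 was 0.57 ± 0.16 (SE; edgeR adjusted p = 0.0955), with a 95% interval of 0.24 to 0.91. None of the 9 single-omission fits called it. DESeq2 called it at an adjusted p of 0.0135.

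OTC (chromosome X, 34322398 to 34391711), which makes citrulline, was at 802, 965, 944 and 907 CPM in MIDY libraries 1 to 4. In WT libraries 1 to 5 it was at 780, 619, 609, 670 and 642 CPM. MIDY replicate 1 and WT replicate 1 nearly met, and the other libraries of each group kept well apart. The log2 difference was 0.45 ± 0.11 (SE; edgeR adjusted p = 0.0796; 95% interval 0.20 to 0.69).

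OTC passed edgeR's threshold in 1 single-omission fit, without WT replicate 1 (adjusted p = 0.0481). DESeq2 (adjusted p = 0.00283) and limma voom with sample weights (adjusted p = 0.0384) also called it. With DESeq2, 4 of the 8 genes were called higher (ARG1, ASS1, CPS1 and OTC) and none lower, beside 2.57% and 2.05% of the genes to which it gave an adjusted p. With voom 3 were called higher (ARG1, ASS1 and OTC), beside 1.04% of all genes. An alternative tool uses the same counts and is no second measurement.

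NAGS, which makes the activator of CPS1, was the only one of the 8 with a fitted value below 0. It lies on chromosome 12 (19170398 to 19173968) and was the rarest of the 8 in reads, with 97 to 162 raw counts per MIDY library and 117 to 184 per WT library. Its level was 6.74, 6.73, 5.85 and 8.50 CPM in MIDY libraries 1 to 4, and 11.4, 9.19, 8.08, 7.69 and 9.21 CPM in WT libraries 1 to 5. The groups overlapped through MIDY replicate 4, which lay above WT replicates 3 and 4.

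The log2 difference of NAGS was -0.39 ± 0.16 (SE; edgeR adjusted p = 0.258; unadjusted p = 0.0310; 95% interval -0.74 to -0.042). No alternative called it, and in all of them its fitted value was below 0.

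ASL and both carriers had higher means in MIDY, with overlapping groups. ASL (chromosome 3, 16637481 to 16646869), which splits argininosuccinate into arginine and fumarate, was at 90.1, 95.6, 78.7 and 71.3 CPM in MIDY libraries 1 to 4. WT libraries 1 to 5 had 56.7, 52.6, 70.1, 71.3 and 81.8 CPM of ASL. MIDY replicates 1 and 2 lay above every WT library, and replicates 3 and 4 lay within the WT range. Its log2 difference was 0.33 ± 0.14 (SE; edgeR adjusted p = 0.266; 95% interval 0.031 to 0.64).

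SLC25A15 (chromosome 11, 15494176 to 15551172), the ornithine and citrulline carrier, was at 352, 374, 484 and 248 CPM in MIDY libraries 1 to 4. In WT libraries 1 to 5 it was at 339, 228, 210, 250 and 281 CPM. MIDY replicate 3 stood highest, while MIDY replicate 4 lay among the WT libraries. The log2 difference was 0.48 ± 0.19 (SE; edgeR adjusted p = 0.232; 95% interval 0.076 to 0.88).

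SLC25A13 (chromosome 9, 75781421 to 75980606), the aspartate and glutamate carrier known as citrin, was at 135, 88.8, 120 and 104 CPM in MIDY libraries 1 to 4. WT libraries 1 to 5 had 107, 74.6, 88.4, 97.9 and 102 CPM of SLC25A13. MIDY replicate 2, the library with the most ARG1 and ASS1, had the least SLC25A13 of its group. The log2 difference was 0.25 ± 0.14 (SE; edgeR adjusted p = 0.406), and its 95% interval of -0.051 to 0.55 takes in 0.

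**Figure D2:**
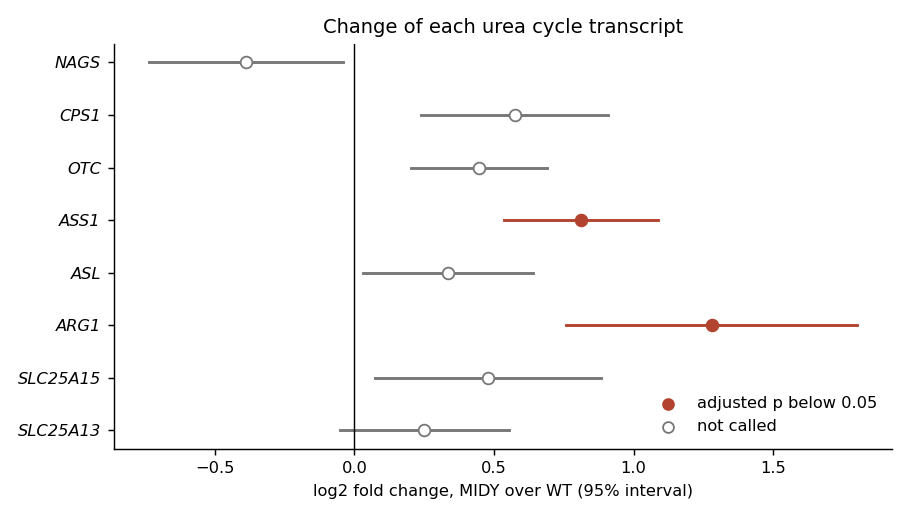
Fitted log2 fold change of MIDY over WT (horizontal axis) with its 95% interval for the 8 transcripts, filled where edgeR's adjusted p was below 0.05. ARG1 (1.28) and ASS1 (0.81) are called, the interval of SLC25A13 takes in 0, and the interval of NAGS lies below 0 with an adjusted p of 0.258.

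Gene models that overlap a member could share its reads, since the strand setting of the counting is not given in the sources used here. RPGR and the pseudogene LOC110257858 overlap OTC, with 446 and 771 counts over the 4 MIDY libraries and 543 and 694 over the 5 WT libraries, against 8823 to 17919 for OTC in a single library. ASL overlaps the long non-coding LOC102161858, which had 54 counts over MIDY and 55 over WT libraries. The models next to SLC25A15, LOC106505276 and LOC100625564, had 6 and 3 counts over MIDY libraries and 3 and 6 over WT libraries. RPGR, LOC110257858 and LOC102161858 were tested and not called. LOC106505276 and LOC100625564 had too few counts to be tested. ARG1, ASS1, CPS1, NAGS and SLC25A13 had no overlapping model in the RefSeq gene table.

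Ratios of 2 transcripts within a library do not depend on how libraries are scaled, and 9 such ratios were formed after the levels had been seen, so they are described without a test. The ratio of ARG1 to NAGS counts was 238, 344, 206 and 158 in MIDY libraries 1 to 4, against 56.5, 55.0, 55.9, 111 and 94.6 in WT libraries 1 to 5. Every MIDY library lay above every WT library in this ratio, and the mean log2 ratio was 7.83 ± 0.47 in MIDY and 6.15 ± 0.49 in WT (SD, n = 4 and 5).

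Ratios to NAGS were also fully separated for ASS1 (74.3 to 130 in MIDY, 34.4 to 53.2 in WT) and for CPS1 (343 to 541 in MIDY, 185 to 280 in WT). All ratios to NAGS share this low-count denominator, whose mean was lower in MIDY. ARG1, ASS1 and CPS1 were already separated by level, so the separation of these ratios is no further result. The ratio of ARG1 to ASL was 15.3 to 24.2 in MIDY libraries and 6.44 to 12.0 in WT libraries, again without overlap. Between ASS1 and ASL, which catalyse consecutive steps, the groups overlapped through WT replicate 2: the ratio was 8.14 to 9.16 in MIDY and 5.49 to 8.72 in WT. The ratio of ARG1 to ASS1 (1.88 to 2.64 in MIDY, 1.10 to 2.09 in WT) and that of SLC25A13 to ASS1 (0.101 to 0.188 in MIDY, 0.163 to 0.273 in WT) overlapped as well. MIDY libraries were close together in the ratio of ASS1 to ASL, with an SD of 0.076 on the log2 scale against 0.28 in WT.

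For the first mitochondrial pair, CPS1 to OTC gave ratios of 2.66 to 4.54 in MIDY and 2.45 to 3.76 in WT, largely overlapping. The carrier SLC25A15 relative to OTC, its partner in the ornithine step, had mean log2 ratios of -1.35 ± 0.39 in MIDY and -1.36 ± 0.15 in WT (SD, n = 4 and 5), with the wider spread in MIDY.

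**Figure D3:**
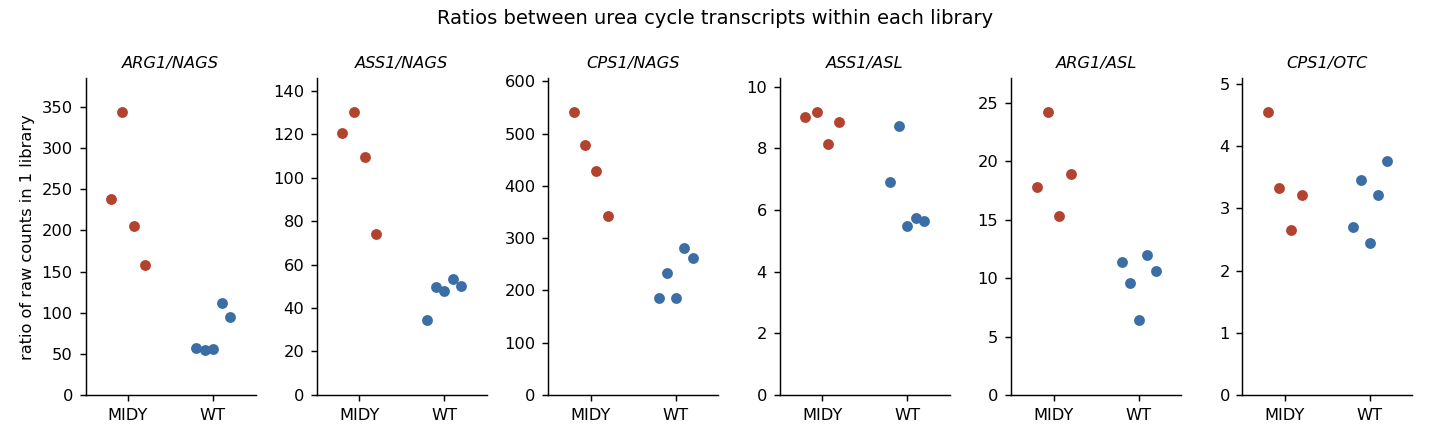
Ratio of raw counts of 2 transcripts in the same library (vertical axes, each from 0) for 4 MIDY and 5 WT libraries, 1 point per pig. The 3 ratios to NAGS and the ratio of ARG1 to ASL do not overlap between the groups, while CPS1 to OTC runs from 2.66 to 4.54 in MIDY and from 2.45 to 3.76 in WT.

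Single animals ordered differently from gene to gene. WT replicate 3 had the lowest level of all 9 libraries in 5 of the 8 transcripts (CPS1, OTC, ASS1, ARG1 and SLC25A15), and WT replicate 2 in another 2 (ASL and SLC25A13). MIDY replicate 2 was highest in 4 (OTC, ASS1, ASL and ARG1). Within the WT group, the highest library was replicate 1 for OTC, NAGS and both carriers, and replicate 5 for CPS1, ASS1, ASL and ARG1.

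After each group's mean was taken out of log2 CPM, 20 of the 28 pairs of members had a correlation above 0 over the 9 libraries, with a median Pearson r of 0.17. CPS1 with ARG1 (r = 0.71), CPS1 with ASS1 (0.68), ASL with ARG1 (0.65) and ASS1 with ARG1 (0.62) were the closest pairs, and OTC went best with SLC25A15 (0.56). CPS1 with OTC had r = -0.024, and ASL with NAGS had the lowest value, -0.48. These values are descriptions over 9 points that share library depth and composition. No like count over other gene pairs stands beside them, so they do not set the members apart.

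Among the named genes with a mean of at least 10 CPM, those whose log2 CPM followed a member most closely over the 9 libraries were listed, 2 for each, out of 6729 candidates (6730 for NAGS). For ARG1 they were AASS, the first enzyme of lysine breakdown (r = 0.97), and NAXD, a repair enzyme of NADH hydrates (0.96). For ASS1 they were MIA3, of collagen export from the endoplasmic reticulum, and AHCY, the hydrolase of S-adenosylhomocysteine (0.98 and 0.97). AASS, MIA3 and AHCY were themselves called higher (edgeR adjusted p = 0.0231, 0.0205 and 0.0264), beside 0.816% of all genes, and NAXD was not (0.0617). These genes were picked on values that hold the difference between the groups. Calls of genes picked for following ARG1 and ASS1, which were called, are therefore no further result. Of the 9 single-omission fits, 6 called AASS, 6 MIA3 and 2 AHCY, and without WT replicates 1 and 2 none of the 3 was called (edgeR adjusted p = 0.0783, 0.0757 and 0.0811).

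CPS1 was followed most closely by PPP2R1B and GNAI3 (r = 0.98 for both) and OTC by AKAP7 and PCMTD1 (0.98 and 0.97). For SLC25A15 these were SLC3A1 and ANO6 (0.96 and 0.95), for ASL NOTUM and PDPR (0.94 for both), for SLC25A13 KPNA5 and IYD (0.92 and 0.91) and for NAGS JUN and TTLL4 (0.94 and 0.92). With group means taken out, r for these 16 pairs was between 0.83 and 0.97. Such values are the extremes of all candidates over 9 libraries.

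Around the cycle, 81 of the 94 genes listed for its neighbouring routes could be tested, and 6 of them rose and none fell (edgeR, all genes adjusted; 0.816% and 0.355% of all genes). DESeq2 called 12 higher and 1, GLUL, lower, beside 2.57% and 2.05% of all genes with an adjusted p. Of the 6, 5 belonged to the 19 tested genes listed for the supply of ammonia and aspartate. Their list had a median log2 fold change of 0.28, with 7 genes higher and 3 lower at an unadjusted p below 0.05, beside 8.15% and 8% of all genes.

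GOT1, the cytosolic aspartate aminotransferase, was at 86.7 to 122 CPM in MIDY and 33.1 to 55.7 CPM in WT. GPT2, the mitochondrial alanine aminotransferase, was at 502 to 768 CPM in MIDY and 119 to 258 CPM in WT. GLS2, the liver glutaminase that frees ammonia beside CPS1, was at 173 to 227 CPM in MIDY and 119 to 132 CPM in WT. These 3 genes rose with edgeR adjusted p of 0.00346, 0.00696 and 0.0114. They were called in every single-omission fit and without WT replicates 1 and 2.

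SDS and HAL, which release ammonia from serine and histidine, rose by 2.24 ± 0.36 and 0.97 ± 0.17 (log2 fold change ± SE). Their adjusted p in edgeR was 0.0273 and 0.0231, and 4 and 5 of the 9 single-omission fits called them. Without WT replicates 1 and 2 neither was called. GLUL, which instead binds ammonia into glutamine in hepatocytes near the central vein, was at 109 to 191 CPM in MIDY and 176 to 486 CPM in WT, with overlap (log2 difference -0.98 ± 0.31 SE; edgeR adjusted p = 0.170). AMDHD1, of histidine breakdown, had no call (log2 difference 0.45 ± 0.15 SE; adjusted p of 0.178 in edgeR).

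None of 16 tested genes of arginine, ornithine and proline side routes was called by edgeR, while 5 were higher and none lower at an unadjusted p below 0.05 (8.15% and 8% of all genes), and DESeq2 called 2 higher (2.57% of all genes). OAT, which takes ornithine out of the cycle, was at 75.8 to 174 CPM in MIDY and 36.5 to 60.5 CPM in WT without overlap (log2 difference 1.11 ± 0.24 SE; edgeR adjusted p = 0.0532). DDAH1, which returns citrulline from methylated arginine, was likewise separated, at 106.4 to 202 CPM in MIDY and 79.7 to 105.5 CPM in WT (0.67 ± 0.17; edgeR adjusted p = 0.0798). ARG2, the mitochondrial arginase, was at 15.9 to 31.1 CPM in MIDY and 9.66 to 22.0 CPM in WT (0.76 ± 0.26; edgeR adjusted p = 0.183). Among all genes, 3.72% were separated upward as OAT and DDAH1 were. The median of this list was 0.070.

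In the routes that return fumarate and carry malate, none of 8 was called by edgeR, and at an unadjusted p below 0.05 1 was higher, a share near the 8.15% of all genes, and none was lower (8% of all genes). DESeq2 also called 1 higher, beside 2.57% of all genes. That gene was SLC25A1, the citrate carrier, at 40.6 to 69.4 CPM in MIDY and 29.7 to 39.5 CPM in WT (log2 difference 0.60 ± 0.15 SE; edgeR adjusted p = 0.0807). FH, which hydrates the fumarate that ASL releases, was at 213 to 230 CPM in MIDY and 171 to 227 CPM in WT (0.19 ± 0.10; edgeR adjusted p = 0.373). ME1, the cytosolic malic enzyme, was low, at 2.18 to 3.90 CPM in MIDY and 0.60 to 3.45 CPM in WT (edgeR adjusted p = 0.429). The list median was 0.18.

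Of 14 tested genes for transport of amino acids, ammonia and urea across the cell membrane, none was called by edgeR or DESeq2, and 4 were higher and none lower at an unadjusted p below 0.05, beside 8.15% and 8% of all genes (list median 0.28). SLC38A4, an amino acid transporter of hepatocytes, was at 1275 to 1408 CPM in MIDY and 933 to 1273 CPM in WT (log2 difference 0.32 ± 0.12 SE; edgeR adjusted p = 0.214). SLC1A4, a carrier of small neutral amino acids, had 7.01 to 10.2 CPM in MIDY and 4.86 to 7.39 CPM in WT (edgeR adjusted p = 0.205). AQP7, a channel for water and glycerol, was close to the detection limit, at 0.63 to 2.12 CPM in MIDY and 0 to 0.60 CPM in WT (edgeR adjusted p = 0.173).

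A further list held 24 genes, mostly regulators of the cycle or of the liver's fasting response, with TAT as a target enzyme of glucocorticoids. At an unadjusted p below 0.05, 4 of them were higher and none lower, beside 8.15% and 8% of all genes. By edgeR's adjusted p none was lower, beside 0.355% of all genes. CREB3L3, a transcription factor held in the endoplasmic reticulum, was the only one called higher by edgeR, beside 0.816% of all genes. Its level was 129 to 213 CPM in MIDY and 82.8 to 113 CPM in WT (log2 fold change 0.72 ± 0.15 SE; edgeR adjusted p = 0.0394), and 2 of the 9 single-omission fits called it, but not the fit without WT replicates 1 and 2. The insulin receptor INSR (229 to 265 CPM in MIDY, 163 to 193 in WT), the fatty acid sensor PPARA (41.8 to 61.5 CPM in MIDY, 20.4 to 39.6 in WT) and KLF9 (48.2 to 61.3 CPM in MIDY, 31.2 to 45.9 in WT) were separated without an edgeR call (adjusted p = 0.0549, 0.0756 and 0.111). In 3.72% of all genes every MIDY library likewise lay above every WT library. DESeq2 called 4 of the 24 higher and none lower, beside 2.57% and 2.05% of genes with an adjusted p. They were CREB3L3, INSR, PPARA and KLF9 (DESeq2 adjusted p = 0.00114, 0.000594, 0.0100 and 0.0404). With voom CREB3L3 and INSR were called higher, beside 1.04% of all genes. The list median was 0.11.

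**Figure D4:**
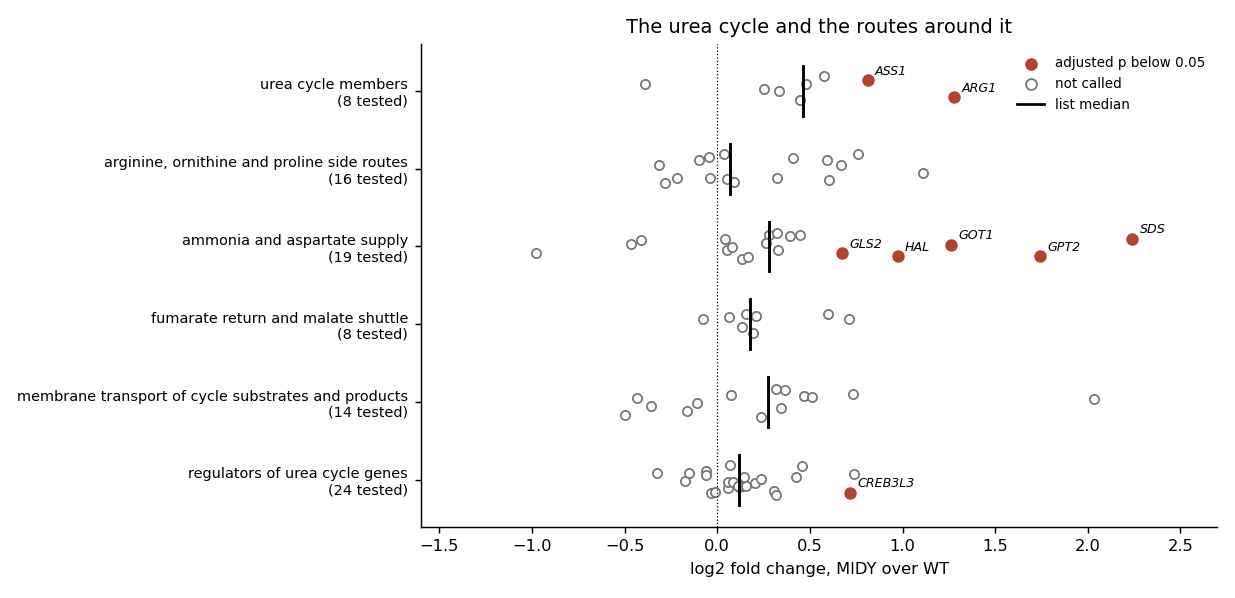
Fitted log2 fold change of MIDY over WT (horizontal axis) for each tested gene of the urea cycle and of 5 neighbouring routes (rows), filled and named where edgeR's adjusted p was below 0.05; vertical bars are list medians and vertical scatter within a row has no meaning. ARG1, ASS1, 5 of 19 ammonia and aspartate supply genes and CREB3L3 are called.

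Markers of other liver cells moved beside these results, and their part in them was not tested. All 7 stellate cell and fibroblast markers had fitted values below 0, COL1A2 fell (edgeR adjusted p = 0.0434), and their summed level was 216 to 351 CPM in MIDY and 324 to 543 CPM in WT. All 6 tested lymphocyte markers were below 0, CD2 fell (edgeR adjusted p = 0.0384), and the sum of the 8 was 39.4 to 47.2 CPM in MIDY and 48.0 to 75.2 CPM in WT. Over all genes tested, edgeR called 0.355% lower, and 6947 of 14100 had fitted values above 0. At an unadjusted p below 0.05 in edgeR, 5 stellate cell and 3 lymphocyte markers were lower, beside 8% of all genes. None was higher, beside 8.15%. DESeq2 called 2 and 1 of them lower, beside 2.05% of genes with an adjusted p. The edgeR calls of COL1A2 and CD2 each held in 2 of the 9 single-omission fits. Both were lost without WT replicates 1 and 2 (edgeR adjusted p = 0.0793 for COL1A2 and 0.0825 for CD2). With limma voom, COL1A2 was called and CD2 was not (adjusted p = 0.0287 and 0.0543). Every MIDY library lay below every WT library in COL1A2, CD2 and MS4A1, and in 2.63% of all genes.

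Sums of the biliary (7 markers, 25.8 to 37.3 CPM in MIDY and 30.0 to 77.2 in WT), macrophage (7 markers, 535 to 735 CPM in MIDY and 572 to 749 in WT) and endothelial markers (7 markers, 677 to 752 CPM in MIDY and 637 to 767 in WT) overlapped. Single markers within them lay in opposite directions, none of them called by edgeR, but most lay below 0. Fitted values were above 0 for 1 of 6 tested biliary, 2 of 7 macrophage and 2 of 7 endothelial markers. Of all genes tested, 6947 of 14100 were above 0. List medians were -0.31, -0.18 and -0.15 in the same order. Of macrophage markers, MARCO was at 18.0 to 23.9 CPM in MIDY and 5.55 to 17.1 CPM in WT, and CD163 at 71.4 to 75.6 CPM in MIDY and 80.5 to 89.5 CPM in WT, both without overlap (edgeR adjusted p = 0.138 and 0.239). Every MIDY library lay above every WT library in 3.72% of all genes, and below in 2.63%. DESeq2 called 1 macrophage marker higher, beside 2.57% of genes with an adjusted p. CD5L supplied most of the macrophage sum (352 to 523 CPM in MIDY, 336 to 488 in WT). Log2 differences were 0.38 for STAB2 and -0.24 for PECAM1 among endothelial markers, and 0.69 for EPCAM and -1.50 for SPP1 among biliary ones (edgeR adjusted p = 0.144, 0.271, 0.224 and 0.204).

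Red blood cell markers (5 in the table) summed to 162 to 536 CPM in MIDY and 69.1 to 1493 CPM in WT. Of kidney, an organ that also makes arginine, 4 of 5 markers were at 0 in all libraries and the sum was at most 0.069 CPM, and pancreas and intestine markers summed to at most 4.25 CPM in MIDY and 2.43 CPM in WT.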

How the data were processed

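Liver RNA of 4 MIDY and 5 WT pigs was sequenced, and samples were grouped by the genotype in the labels. Trizol RNA was, per the labels' protocols, depleted of ribosomal RNA and made into libraries with Nugen's Encore Complete system. The deposited values are the authors' raw counts for each gene symbol; STAR, HTSeq, DESeq2 and the build Sscrofa11.1 are named in the submitters' processing notes. For versions and strand setting the sources used here give nothing.

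Counts were tested across all genes with edgeR 4.0.16 (R 4.3.3): filterByExpr with a minimum count of 10, TMM factors and the robust quasi-likelihood fit, two-sided, with Benjamini-Hochberg adjustment over 14100 genes. SEs are |log2 fold change| / √F, and 95% intervals are not adjusted for multiple tests. CPM use the TMM-scaled library sizes of the tested genes. For correlations, log2 CPM had a prior count of 2. The edgeR fit was run on simulated counts with the same dispersion for every gene, which does not cover spread that differs between genes. All 29837 symbols matched the RefSeq gene table, the source of positions.

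The members, lists and alternatives were chosen with earlier results of these data known. Text names all members, called genes of each list and up to 3 more with the smallest p, and 2 genes most like each member; 1 gene that the rule names is not reported here. Alternatives were RLE and total-count scaling, the 10 most abundant genes left out, no filter, a filter keeping genes with 1 CPM or more in 4 or more libraries, the tests of DESeq2 (1.42.0) and of voom in limma (3.58.1), and libraries left out.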

Additional observations from a re-analysis of the deposited data

How the results depend on the processing

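No fitted log2 fold change of the 8 urea cycle genes changed sign under any alternative. The count of members called higher, 2 with edgeR, was 4 with DESeq2 and 0 without WT replicates 1 and 2, and ranged from 1 to 3 when single libraries were left out (1 without MIDY replicate 1 or 2 or WT replicate 2 or 3, 3 without WT replicate 1). The count of neighbouring genes called higher, 6 with edgeR, was 12 with DESeq2, 3 without WT replicates 1 and 2, and 3 to 9 when single libraries were left out (3 without WT replicate 2, 3 or 4, 9 without MIDY replicate 4). DESeq2 called 1 neighbouring gene lower, GLUL, where edgeR called 0, beside 2.05% and 0.355% of all genes. With total counts alone 9 neighbouring genes were called higher. Over all genes, the share called higher was 0.816% with edgeR, 2.57% with DESeq2, 0.809% with total counts alone and 0.296% without WT replicates 1 and 2. The fits that each omit 1 library called 0.237 to 1.09% of all genes higher. What sets the difference between the tools was not tested. NAGS, with under 200 counts in each library, has the least depth of the 8. No paired analysis was possible because no replicate number in the labels pairs MIDY with WT pigs.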
